A study of Mus musculus with 7 samples.

Results

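The 9 genes described here, Lck, Fyn, Zap70, Lat, Lcp2, Plcg1, Ptprc, Csk and Rasgrp1, encode kinases, adaptors and regulators that act directly below the T cell receptor (TCR). They were chosen by name, as a list of proximal TCR signalling genes, and are 9 of the 16734 genes in the deposited table. All 9 were found in it, and all 9 were among the 10498 genes that had a mean of at least 1 RPKM (mapped reads scaled by exon length and by the reads of the library) and were tested. RNA with poly(A) tails was sequenced from suspensions of whole thymus of 4 week old mice. The 3 groups were wild type mice of the C57BL/6 strain (3 libraries, replicates 1, 2A and 2B), mice labelled Ikaros ZnF1-/- (2 libraries, replicates 1 and 2) and mice labelled Ikaros ZnF4-/- (2 libraries, replicates 1 and 2). Ikaros, the product of Ikzf1, is a zinc finger transcription factor of lymphocytes, and the mutants lack the first (ZnF1) or the fourth (ZnF4) finger of its DNA-binding domain in every cell of the body. Wild type 2A and 2B were treated as 2 libraries, though the labels do not say whether they came from separate animals or from 1 preparation. The strain background of the mutants, the number of animals behind a library and whether any were pooled are not given in the sources used here, so p values measure the spread between these libraries, which may be partly technical.

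When the TCR meets its ligand, Lck, carried to it by the coreceptors CD4 and CD8, phosphorylates the receptor tails, on which Zap70 docks and is activated. Zap70 then phosphorylates the adaptors Lat and Lcp2 (SLP-76), the scaffold that brings in phospholipase C-gamma1 (Plcg1), whose products raise calcium and recruit the Ras activator Rasgrp1. Csk, which phosphorylates the inhibitory tail of Lck and Fyn, and the phosphatase CD45 (Ptprc), which removes that phosphate, set the amount of active Src family kinase. In the thymus the strength of these signals decides whether a CD4 CD8 double positive thymocyte survives, matures or dies.

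In the mouse annotation GENCODE M1 on NCBIM37, which is the mm9 build named in the submitters' processing notes, Lck lies at chr4:129225588-129250885 on the minus strand and Fyn at chr10:39088661-39285187 on the plus strand. Zap70 lies at chr1:36818695-36839663 on the plus strand, Csk at chr9:57474454-57493460 on the minus strand and Ptprc at chr1:139959438-140071882 on the minus strand. Lat lies at chr7:133507346-133513057 on the minus strand, Lcp2 at chr11:33946920-33992295 on the plus strand, Plcg1 at chr2:160557036-160601496 on the plus strand and Rasgrp1 at chr2:117105729-117168737 on the minus strand. Exons of Plcg1 overlap those of Zhx3 on the other strand, and exons of Lcp2 overlap those of the non-coding transcript 4930469K13Rik on the other strand. The strand of the libraries is not given in the sources used here, so reads from these overlaps cannot be told apart.

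The core of the sequence that Ikaros recognises, TGGGAA, is read by the middle fingers of its DNA-binding domain, which both mutants keep, while the first and the fourth finger modulate binding at a subset of sites. The promoters of the 9 genes were searched for this core on both strands, as a description of where Ikaros could bind and not of where the mutants differ. RefSeq on GRCm38.p6, a later build than that of the expression table, lists 14 promoters for the 9 genes, each taken as 250 bases before and 50 bases after a transcription start. The core was found in 4 of the 14 (28.6%), one each in Lck, Zap70, Lat and Lcp2, and in 25.6% of all 32817 mouse promoters of the same length in that table. It was absent from these windows of Fyn, Csk, Ptprc, Plcg1 and Rasgrp1, which says only that these letters were not there. The 4 stretches that hold the core are shown first, then that of Rasgrp1, whose fold change against wild type was furthest from 0. Each is the 250 bases before the start, read 5′ to 3′ on the strand of the gene, with the core in capitals. The stretch of Lck is that of the farther upstream of its 2 listed starts, at chr4:129573642-129573891 on the minus strand, with the core beginning 207 bases before the start. That of Zap70, the first of 3 listed starts, is chr1:36761548-36761797 on the plus strand, with the core 179 bases before the start. That of Lat is chr7:126369569-126369818 on the minus strand, where the core is on the opposite strand and so reads TTCCCA, 81 bases before the start. That of Lcp2 is chr11:34046678-34046927 on the plus strand, with the core 43 bases before the start, and that of Rasgrp1 is chr2:117342878-117343127 on the minus strand, with no match.
Lck: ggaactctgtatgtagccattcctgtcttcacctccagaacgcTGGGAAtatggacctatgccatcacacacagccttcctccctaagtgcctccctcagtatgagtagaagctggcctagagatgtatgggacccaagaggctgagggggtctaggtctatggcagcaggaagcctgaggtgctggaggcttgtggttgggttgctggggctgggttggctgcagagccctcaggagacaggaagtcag
Zap70: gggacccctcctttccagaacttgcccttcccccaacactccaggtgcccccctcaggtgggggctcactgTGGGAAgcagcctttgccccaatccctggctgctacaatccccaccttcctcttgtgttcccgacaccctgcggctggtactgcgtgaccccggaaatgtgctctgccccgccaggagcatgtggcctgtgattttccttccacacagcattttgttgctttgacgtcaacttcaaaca
Lat: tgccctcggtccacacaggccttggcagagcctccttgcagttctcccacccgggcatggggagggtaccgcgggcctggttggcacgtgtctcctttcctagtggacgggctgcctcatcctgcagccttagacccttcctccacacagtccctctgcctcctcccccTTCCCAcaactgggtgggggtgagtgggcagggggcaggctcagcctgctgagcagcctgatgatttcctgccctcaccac
Lcp2: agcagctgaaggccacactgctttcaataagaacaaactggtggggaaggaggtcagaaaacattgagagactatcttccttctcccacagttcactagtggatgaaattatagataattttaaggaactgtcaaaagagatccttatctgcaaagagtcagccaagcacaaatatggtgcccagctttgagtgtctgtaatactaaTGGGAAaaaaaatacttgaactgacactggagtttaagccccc
Rasgrp1: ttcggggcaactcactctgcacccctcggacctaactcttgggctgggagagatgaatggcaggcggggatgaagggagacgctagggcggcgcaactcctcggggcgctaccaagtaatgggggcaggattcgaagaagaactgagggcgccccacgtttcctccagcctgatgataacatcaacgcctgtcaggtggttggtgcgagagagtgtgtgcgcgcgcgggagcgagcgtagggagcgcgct

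The number of genes at or above 1 RPKM lay between 10185 and 10695 in the 7 libraries. Ikzf1 itself was at 142, 175 and 169.5 RPKM in wild type 1, 2A and 2B, at 183 and 194 in ZnF1-/- and at 238 and 257 in ZnF4-/-, and a level over the whole gene does not check the loss of 1 finger. The 3 libraries numbered 1 have 76 bp reads from a GAIIx and all others 50 bp reads from a HiSeq, so replicate number marks instrument and read length in every group. Total reads were not given. Depths that best matched the steps of low values were 20130000, 14299000 and 6318000 reads in replicate 1 of wild type, ZnF1-/- and ZnF4-/-. By those estimates the 9 genes were covered by 784 reads (Zap70 in ZnF4-/- 1) to 26683 reads (Ptprc in wild type 1), a counting error of 3.57% to 0.612% of the level. For the 50 bp libraries no such estimate could be made, and their depth is unknown.

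All 9 genes were strongly expressed in every library. Their RPKM, which is scaled by length and so can be set side by side between genes, exceeded that of 93.3% to 99.9% of the genes in the table. Lck and Lat stood highest, Ptprc came next in each of the 7 libraries, Rasgrp1 and Csk followed, then Lcp2 and Zap70, and Plcg1 and Fyn were lowest. The order within a library changed only between neighbours. Lat stood above Lck in ZnF4-/- 1, Csk above Rasgrp1 in ZnF1-/- 2 and ZnF4-/- 2, Zap70 above Lcp2 in wild type 2A, and Fyn above Plcg1 in ZnF4-/- 2. The range of Ptprc over the 7 libraries, 224 to 271 RPKM, overlapped that of no other of the 9 genes. The ranges of all other neighbours in this order overlapped. Within a library, however, Csk stood above Lcp2 and Zap70 above Plcg1 in all 7 libraries, while Lck and Lat, Rasgrp1 and Csk, Lcp2 and Zap70, and Plcg1 and Fyn changed places in at least 1.

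**Figure D1:**
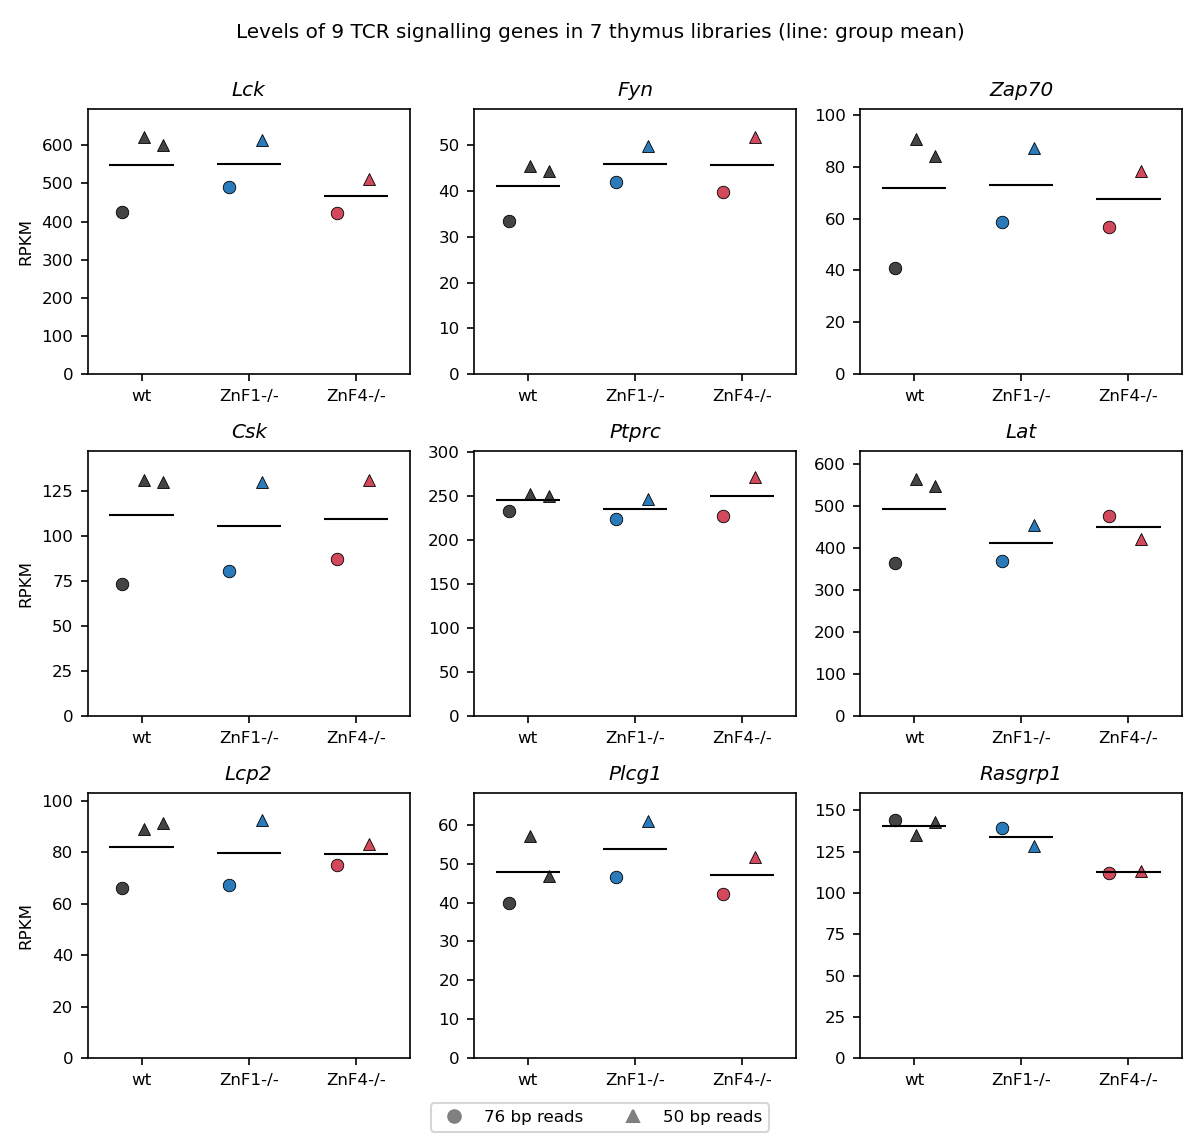
RPKM (linear axis from 0) of each of the 9 genes in wild type, ZnF1-/- and ZnF4-/- thymus, with 1 point per library, circles for 76 bp and triangles for 50 bp reads, and a line at the group mean. For Zap70 and Csk the 76 bp and 50 bp libraries stand further apart than the genotypes, and for Rasgrp1 both ZnF4-/- points, at 112 and 113 RPKM, lie below the 3 wild type points.

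None of the 9 genes changed in either mutant by the test used for all genes, limma on log2(RPKM + 0.5) with p values adjusted over the 10498 genes and a threshold of 0.05. In ZnF1-/- against wild type, 0 of 9 passed, where 9 genes or 0.0857% of all those tested did. In ZnF4-/- against wild type, 0 of 9 passed, where 267 genes or 2.54% did, 235 of them higher. In ZnF4-/- against ZnF1-/-, 0 of 9 passed, where 246 genes or 2.34% did. With shares this low, 0 of 9 is near the background and is not a result about these genes.

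The fit with replicate number as a block is called the blocked fit below. It takes the difference between the 76 bp and 50 bp libraries out of the spread. Wild type has a larger share of 50 bp libraries than either mutant. Without the block this difference therefore also enters the fold changes against wild type, and lowers them for genes higher at 50 bp. The blocked fit gave 0 of 9 in each comparison too. The share of all genes called in it against wild type was 0.876% for ZnF1-/- and 8.22% for ZnF4-/-, and that called between the mutants was 7.29%. At an unadjusted p under 0.05, the number of the 9 genes was 0 in all 3 comparisons without the block, and 1, 2 and 1 with it. Without the block 404, 1063 and 963 of all genes were under that p, and with it 917, 2149 and 2123. The 2 comparisons against wild type share the wild type libraries, so their values for a gene are not independent. The median log2 fold change of the 9 genes in the blocked fit was 0.05 in ZnF1-/- and 0.04 in ZnF4-/- against wild type, where the median of all tested genes was 0.01 and -0.02. The median of its size without regard to sign was 0.09 and 0.10, where that of all tested genes was 0.10 and 0.14.

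**Figure D2:**
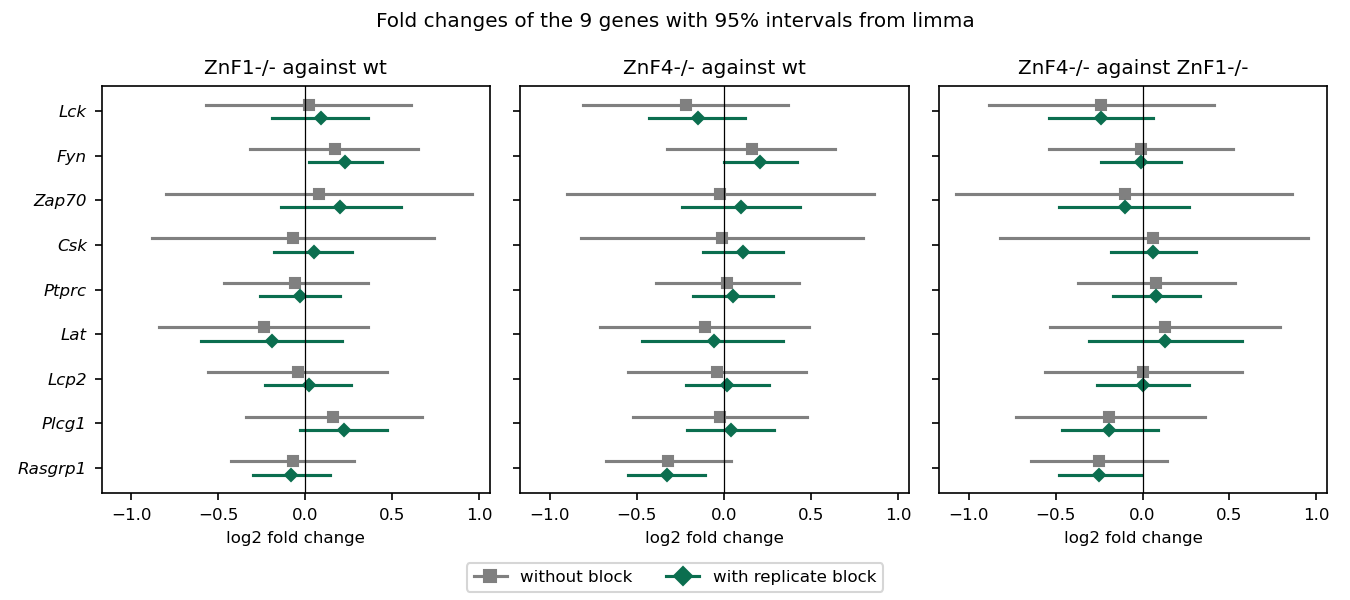
Log2 fold change of each gene (x axis) in the 3 comparisons, with its 95% interval from limma, as grey squares without the block and green diamonds with replicate number as a block. The widest intervals without the block belong to Zap70 and Csk, and of the ZnF4-/- against wild type values in the blocked fit that of Rasgrp1, at -0.33, lies furthest from 0.

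The receptor-proximal kinases come first. Lck, the Src family kinase bound to the coreceptors, was at 424, 622 and 599.5 RPKM in wild type 1, 2A and 2B, at 490.5 and 614 in ZnF1-/- 1 and 2, and at 422 and 512 in ZnF4-/- 1 and 2. Both ZnF4-/- libraries were the lowest of their read length, by a small margin at 76 bp, and the groups overlapped. In the blocked fit ZnF1-/- was 0.09 ± 0.12 log2 units (SE) from wild type (adjusted p = 0.915) and ZnF4-/- was -0.15 ± 0.12 from it (adjusted p = 0.554), with a 95% interval of -0.43 to 0.12 for the second. Between ZnF4-/- and ZnF1-/- it was -0.24 (interval -0.54 to 0.06, adjusted p = 0.365), and the differences within replicate numbers were -0.22 and -0.26.

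Fyn, the second Src family kinase of thymocytes, stood at 33.4, 45.5 and 44.4 RPKM in wild type, at 42.1 and 49.8 in ZnF1-/- and at 39.8 and 51.8 in ZnF4-/-. Both mutants were above wild type within each replicate number, and the groups overlapped across numbers. The blocked log2 fold change was 0.23 (interval 0.02 to 0.44) in ZnF1-/- and 0.21 (interval 0 to 0.42) in ZnF4-/-. Neither passed over all genes, with unadjusted p = 0.0385 and 0.0469 and adjusted p = 0.506 and 0.235. The within-number differences of Fyn were 0.33 and 0.15 in ZnF1-/- and 0.25 and 0.20 in ZnF4-/-.

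Zap70, the kinase that docks on the phosphorylated receptor, was at 40.8, 90.5 and 84.0 RPKM in wild type, at 58.85 and 87.2 in ZnF1-/- and at 56.6 and 78.5 in ZnF4-/-. Its lowest value was that of wild type 1, and the 50 bp libraries of the 3 groups lay close together. Within replicate 1 the log2 difference from wild type was 0.52 in ZnF1-/- and 0.47 in ZnF4-/-, and within replicate 2 it was 0.00 and -0.15. The blocked values were 0.20 ± 0.15 and 0.10 ± 0.15 (adjusted p = 0.80 and 0.779). In replicate 1 both mutants are set against the same single wild type library.

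The regulators of the Src kinases differed between genotypes by less than the spread between libraries. Csk, the kinase that holds Lck and Fyn inactive, was at 73.6, 131 and 130.2 RPKM in wild type, at 80.8 and 130.2 in ZnF1-/- and at 87.6 and 131 in ZnF4-/-. The 4 libraries of 50 bp were nearly equal, and of those of 76 bp wild type was the lowest and ZnF4-/- the highest. The blocked log2 fold change was 0.05 (interval -0.18 to 0.27) in ZnF1-/- and 0.11 (interval -0.12 to 0.34) in ZnF4-/-.

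Ptprc, encoding the phosphatase CD45 present on all white blood cells, was at 233, 252 and 249.96 RPKM in wild type, at 224 and 247 in ZnF1-/- and at 227 and 271 in ZnF4-/-. All 7 values lay in 1 narrow band in which the groups overlapped. The blocked log2 fold change was -0.03 (interval -0.26 to 0.20) in ZnF1-/- and 0.05 (interval -0.18 to 0.28) in ZnF4-/-. In bulk tissue fewer cells of a type and less RNA per cell cannot be told apart, and this holds for each gene here.

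Of the adaptors, Lat, the membrane scaffold phosphorylated by Zap70, was at 364, 564 and 548 RPKM in wild type, at 368 and 454 in ZnF1-/- and at 477 and 421 in ZnF4-/-. It was the only one of the 9 genes whose ZnF4-/- libraries stood on opposite sides of wild type by more than 0.3 log2 units each, with 0.39 in replicate 1 and -0.40 in replicate 2. Against wild type the blocked log2 values of Lat were -0.19 ± 0.18 for ZnF1-/- (adjusted p = 0.853) and -0.06 ± 0.18 for ZnF4-/- (adjusted p = 0.897). Its interval in ZnF4-/-, -0.47 to 0.34, was the widest of the 9 genes in that fit.

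Lcp2, the cytosolic adaptor SLP-76 that binds the Lat complex, was at 66.1, 89.0 and 91.4 RPKM in wild type, at 67.25 and 92.4 in ZnF1-/- and at 74.99 and 83.3 in ZnF4-/-. The ZnF4-/- values lay inside the wild type range. The blocked log2 fold change of Lcp2 was 0.02 in both mutants, with intervals of -0.23 to 0.26 in ZnF1-/- and -0.22 to 0.26 in ZnF4-/-. Reads of the overlapping transcript on the other strand may be included in these values.

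**Figure D3:**
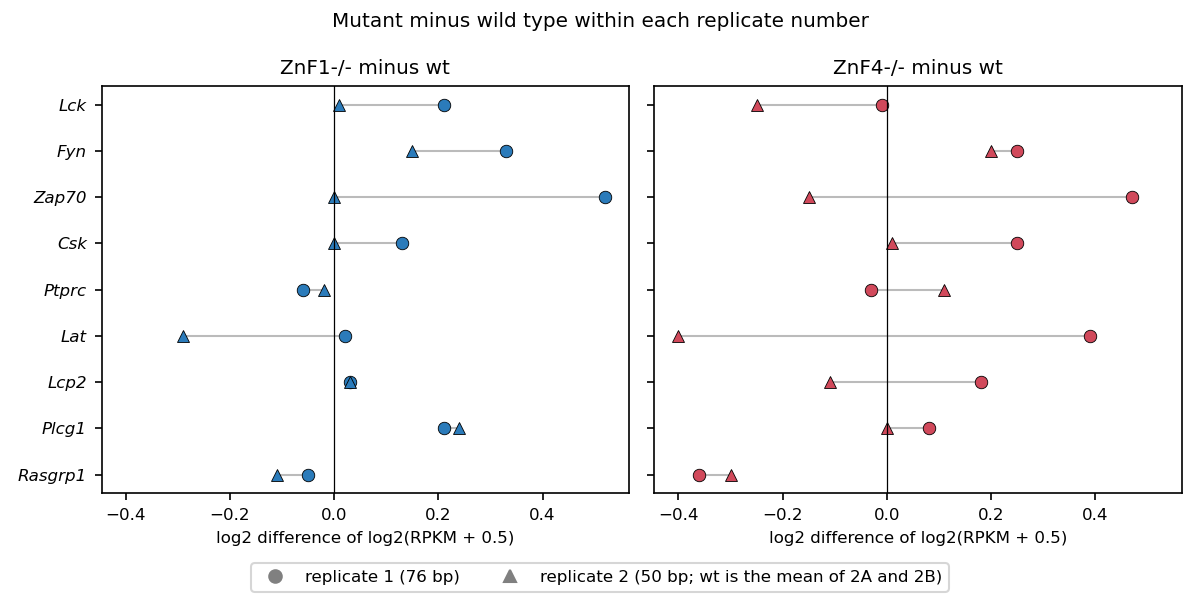
Difference of log2(RPKM + 0.5) between a mutant and wild type (x axis) for each gene, as circles within replicate 1 (76 bp) and triangles within replicate 2 (50 bp, where wild type is the mean of 2A and 2B). Lat in ZnF4-/- spans 0.39 to -0.40, while Rasgrp1 in ZnF4-/- is at -0.36 and -0.30.

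Of the effectors, Plcg1, the phospholipase that makes the calcium and diacylglycerol signals, was at 40.0, 57.15 and 46.8 RPKM in wild type, at 46.5 and 61.0 in ZnF1-/- and at 42.3 and 51.7 in ZnF4-/-. The groups overlapped, and wild type 2B minus 2A was -0.29 log2 units, the largest gap between these libraries among the 9 genes. With the block the log2 fold change was 0.22 (interval -0.03 to 0.47, adjusted p = 0.644) in ZnF1-/- and 0.04 (interval -0.21 to 0.29, adjusted p = 0.90) in ZnF4-/-.

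Rasgrp1, the exchange factor that diacylglycerol recruits to load Ras with GTP and that positive selection in the mouse thymus requires, was the 1 gene of the 9 whose ZnF4-/- libraries did not overlap wild type. It was at 144, 135 and 143 RPKM in wild type, at 139 and 128 in ZnF1-/- and at 112 and 113 in ZnF4-/-. The 2 ZnF4-/- values were the lowest of all 7 libraries. Groups without overlap were found for 1 of 9 genes in ZnF4-/-, where 23.1% of all tested genes had none, and for 0 of 9 in ZnF1-/-, where 13.8% had none, so neither count stands apart from the background.

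The log2 fold change of Rasgrp1 in ZnF4-/- against wild type was -0.32 ± 0.15 without the block (interval -0.68 to 0.04, adjusted p = 0.587). In the blocked fit it was -0.33 ± 0.09, or 0.796 of the wild type level (interval -0.55 to -0.11, unadjusted p = 0.0085, adjusted p = 0.082), and so did not pass over all genes. The within-number differences were -0.36 and -0.30. Against ZnF1-/- the blocked value was -0.25 (interval -0.48 to -0.01, adjusted p = 0.229), and ZnF1-/- against wild type was -0.08 (interval -0.30 to 0.14, adjusted p = 0.89). Across the blocked fit with libraries scaled to a common median or with each of the 7 libraries left out, the ZnF4-/- value ran from -0.38 to -0.29, with adjusted p = 0.0792 to 0.253.

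The markers of double positive thymocytes, which are the bulk of the thymus, were also lowest in ZnF4-/-. The summed RPKM of the 7 marker genes was 2910, 3440 and 3610 in wild type, 2980 and 3380 in ZnF1-/- and 2120 and 2610 in ZnF4-/-, and all 7 had a value below 0 in ZnF4-/- against wild type, with 3 past the threshold, Cd8a and Ccr9 among them, in the blocked fit and 0 without the block. The sum over 5 single positive markers was 126, 144 and 155 in wild type and 158 and 207 in ZnF4-/-. The sum over 8 macrophage and dendritic cell markers was 72.1, 74.7 and 53.9 in wild type and 93.5 and 121 in ZnF4-/-. That over 5 NK cell markers was 17.3, 18.1 and 14.0 against 32.0 and 34.7. Most of the NK sum was Nkg7, at 15.1, 16.1 and 12.3 against 27.5 and 30.35. Klrd1 was higher too, at 1.02, 0.84 and 0.68 against 3.76 and 3.78. Klrb1c was lower, at 0.43, 0.67 and 0.50 against 0.18 and 0.10. Ncr1 (0.24, 0.12 and 0.15 against 0.21 and 0.03) and Klrk1 (0.47, 0.38 and 0.39 against 0.28 and 0.46) did not rise above wild type. The sum over 6 erythroid markers was 22.6, 58.5 and 37.5 in wild type, 20 and 55.5 in ZnF1-/- and 94.9 and 115 in ZnF4-/-, and all 5 that were tested had a value above 0 in ZnF4-/-, with the near-identical Hbb-b1 and Hbb-b2, which may share reads, past the threshold in the blocked fit. No marker of these 5 lists was at 0 in all libraries. The part of these cell types in the levels of the 9 genes was not tested.

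The larger contrast in these 9 genes was that between read lengths, which cannot be told apart from instrument or from the animals used. In wild type the 50 bp libraries exceeded the 76 bp library by 1.09 log2 units for Zap70, 0.82 for Csk, 0.61 for Lat, 0.53 for Lck, 0.45 for Lcp2, 0.43 for Fyn and 0.37 for Plcg1. Ptprc and Rasgrp1 differed least, by 0.11 and -0.06. The median of this difference over the 9 genes was 0.45 in wild type, 0.32 in ZnF1-/- and 0.28 in ZnF4-/-, and over all tested genes it was 0.23, 0.23 and 0.13. Zap70 and Csk also differed in the mutants, by 0.56 and 0.69 in ZnF1-/- and by 0.47 and 0.58 in ZnF4-/-.

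Correlations between the 9 genes over the 7 libraries followed this contrast. Of the 36 gene pairs, 29 had a Pearson r above 0 on the log2 scale, with a median of 0.72 and a range of -0.42 to 0.96. After centring within replicate number 20 of 36 were above 0, with a median of 0.05 and a range of -0.88 to 0.78. These are descriptions over 7 libraries that share instrument and genotype in part.

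Ratios of 2 members within a library cancel any scaling of that library. The ratio of Lck to Fyn RPKM was 12.7, 13.7 and 13.5 in wild type, 11.7 and 12.3 in ZnF1-/- and 10.6 and 9.90 in ZnF4-/-, with no overlap among the 3 groups. Its log2 difference from wild type was -0.37 in ZnF4-/-, where the exact two-sided permutation test gave p = 0.1, the smallest that 3 libraries against 2 allow, and -0.15 in ZnF1-/- (exact permutation p = 0.2). In ZnF4-/- it was lower within both replicate numbers, with log2 differences of -0.26 and -0.46. No test of this size can pass 0.05, alone or after adjustment over the 10 comparisons of 5 ratios, and counting 2A and 2B as 1 sample would leave fewer arrangements still. How often ratios of other gene pairs show no overlap was not counted, so the lack of overlap here has no background beside it.

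The ratio of Lck to its inhibitor Csk was 5.76, 4.75 and 4.61 in wild type, 6.07 and 4.71 in ZnF1-/- and 4.82 and 3.91 in ZnF4-/-. The log2 difference of ZnF4-/- from wild type was -0.26 within each replicate number, while the groups overlapped across them (exact permutation p = 0.5). The ratio of Lat to Lcp2, which together form the scaffold, was 5.51, 6.33 and 6.00 in wild type, 5.47 and 4.92 in ZnF1-/- and 6.35 and 5.05 in ZnF4-/- (exact permutation p = 0.2 and 0.7). The ZnF1-/- values of the Lat to Lcp2 ratio also lay below every wild type value. The remaining ratios, Ptprc to Csk and Zap70 to Lck, gave exact permutation p = 0.7 to 1.

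**Figure D4:**
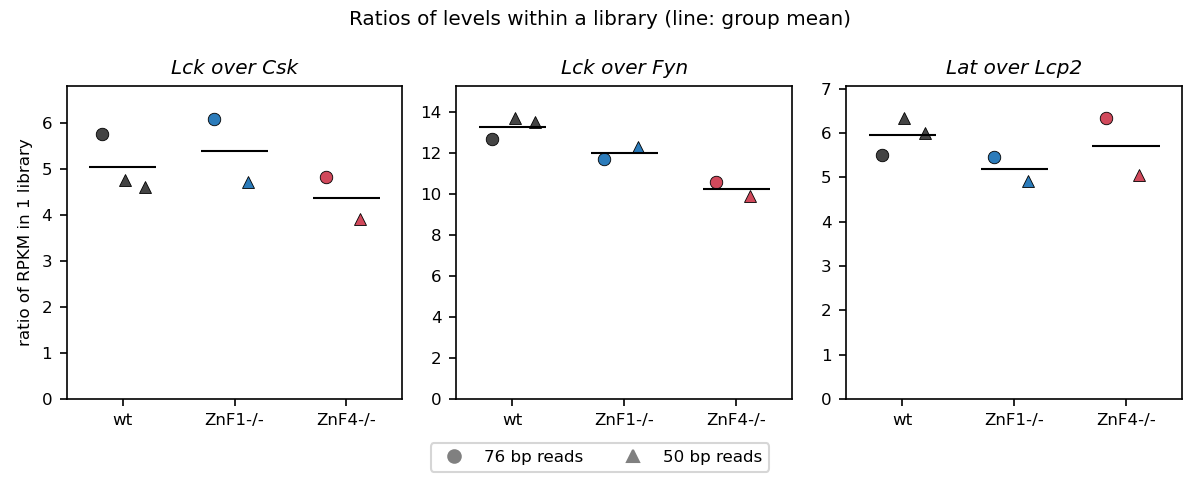
Ratio of RPKM of 2 genes within 1 library (y axis, linear from 0) for Lck over Csk, Lck over Fyn and Lat over Lcp2, with 1 point per library, circles for 76 bp and triangles for 50 bp, and a line at the group mean. The ZnF4-/- libraries, at 10.6 and 9.90, lie below the other 5 for Lck over Fyn.

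The genes whose pattern was most like that of Rasgrp1, the member with the largest blocked change, were found by Pearson r over the 7 libraries after centring within replicate number. They were Sla (r = 0.996), Nhp2l1 (0.995), Wdr78 (0.993), Insig1 (0.991) and Psd4 (0.991). These were picked as the highest r of all tested genes over only 7 libraries, so the size of r is no evidence of a link. Nhp2l1 was also low, at 0.91 to 2.93 RPKM. Sla, an adaptor that promotes the turnover of the TCR, is also on the pathway list below. It was at 166, 199 and 210.4 RPKM in wild type, at 162 and 188 in ZnF1-/- and at 122 and 155 in ZnF4-/-, so that within each read length ZnF4-/- was lowest.

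Around the 9 genes, a list of 120 other genes of the pathway was set out by role. Of these, 119 were in the table and 114 were tested. In ZnF1-/- against wild type 0 of 114 passed without the block and 1 fell with it. In ZnF4-/- against wild type 2 rose without the block (0 with wild type 2A and 2B averaged into 1), and 12 rose and 6 fell with it. In ZnF4-/- against ZnF1-/- 2 rose without the block, and 7 rose and 8 fell with it. In the blocked fit the 18 calls in ZnF4-/- against wild type were 15.8% of the 114, where 8.22% of all tested genes were called, and the 15 between the mutants were 13.2%, where 7.29% were. Without the block the 2 calls of each were 1.75%, where 2.54% and 2.34% were. The list was drawn up with results of these data known, so these shares are a description. The median blocked log2 fold change over the 114 was 0.03, -0.01 and -0.03 in these comparisons, beside 0.01, -0.02 and -0.03 over all tested genes.

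**Figure D5:**
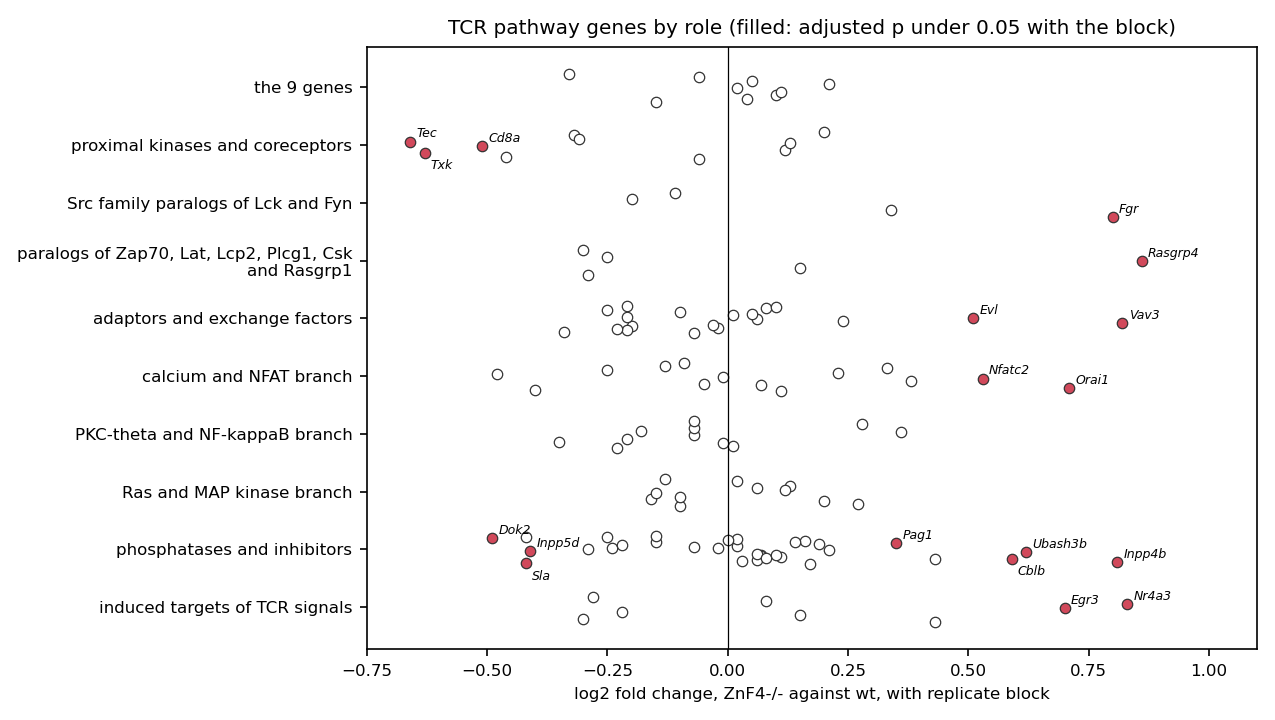
Blocked log2 fold change in ZnF4-/- against wild type (x axis) of the 9 genes and of the 114 tested genes of the pathway list, in rows by role, with 1 point per gene, filled and named where the adjusted p was under 0.05. The row of the 9 genes has no filled point, and the filled points of the pathway list lie on both sides of 0.

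Among the 10 tested proximal kinases and coreceptors, 3 fell in ZnF4-/- against wild type in the blocked fit and 0 did without the block. The 3 were 30% of this short list, beside the 8.22% of all tested genes called in the blocked fit. Txk, a Tec family kinase, was at 23.1, 26.9 and 22.5 RPKM in wild type, at 23.7 and 26.7 in ZnF1-/- and at 13.8 and 16.5 in ZnF4-/-. Both ZnF4-/- values were below all others, with a blocked log2 fold change of -0.63 ± 0.11 (adjusted p = 0.0101). Tec itself was at 5.82, 11.0 and 8.14 in wild type, 8.34 and 13.4 in ZnF1-/- and 3.82 and 5.39 in ZnF4-/-.

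Tec fell by 0.66 log2 units against wild type (adjusted p = 0.0268) and by 1.14 against ZnF1-/- (adjusted p = 0.0035) in the blocked fit. Cd8a, a chain of the coreceptor that carries Lck, was at 499, 584 and 613 RPKM in wild type, 636 and 623 in ZnF1-/- and 397 and 386 in ZnF4-/-, and fell by 0.51 (adjusted p = 0.0479). Its partner chain Cd8b1 passed only against ZnF1-/- (-0.55, adjusted p = 0.046). Cd4 was at 401 to 499.6 in wild type and at 302 and 407 in ZnF4-/- (blocked -0.32, adjusted p = 0.171).

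Of the paralogs of the 9 genes, Rasgrp2 was the most abundant. Among the other Src family kinases, Src stood at 0.25 to 0.42 RPKM, Yes1 at 0 to 0.17 and Lyn at 1.00 to 1.65 over the 7 libraries. Fgr, a Src family kinase best known from myeloid cells, was at 2.98, 3.85 and 3.35 in wild type, 6.02 and 5.46 in ZnF1-/- and 6.27 and 6.16 in ZnF4-/-. It rose in ZnF4-/- by 0.79 ± 0.15 without the block (adjusted p = 0.0445) and by 0.80 with it (adjusted p = 0.00918), while in ZnF1-/- it was 0.69 higher with adjusted p = 0.071 in the blocked fit. Blk was at 1.68, 2.13 and 1.60 in wild type, 0.43 and 0.64 in ZnF1-/- and 1.78 and 1.44 in ZnF4-/-, and fell in ZnF1-/- by 1.14 ± 0.19 (blocked, adjusted p = 0.0407, and 0.181 without the block).

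Among the paralogs of the downstream members, Rasgrp4 was at 6.32, 8.11 and 8.31 RPKM in wild type, 6.06 and 5.26 in ZnF1-/- and 13.2 and 14.5 in ZnF4-/-. The ZnF4-/- libraries were the highest of the 7. Rasgrp4 rose by 1.22 ± 0.18 against ZnF1-/- without the block (adjusted p = 0.016), and by 0.86 ± 0.14 against wild type with it (adjusted p = 0.0071, and 0.0503 without it). Its level in ZnF4-/- remained far under the 112 and 113 RPKM of Rasgrp1 in the same libraries. Rasgrp2 was at 26.6 to 41.7 in wild type and 24.1 and 31.3 in ZnF4-/- (blocked -0.30, adjusted p = 0.145), and Rasgrp3 was at 0.12 to 0.66 throughout. Lat2 stood at 1.70 to 2.75, Plcg2 at 1.46 to 3.12, Matk, a kinase related to Csk, at 2.81 to 6.42, Blnk at 0.53 to 0.99 and Clnk at 0.03 to 0.20, and none of these 5 passed in a comparison in which it was tested. The Zap70 paralog Syk was not analysed here.

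Of 19 adaptors and exchange factors, 2 rose in ZnF4-/- against wild type in the blocked fit. That is 10.5% of the list, near the 8.22% of all tested genes, and so not a result about adaptors. Vav3, a guanine nucleotide exchange factor, was at 1.33, 1.31 and 1.34 RPKM in wild type, 2.44 and 2.95 in ZnF1-/- and 2.11 and 3.29 in ZnF4-/-, with blocked values of 0.82 in ZnF4-/- (adjusted p = 0.02) and 0.84 in ZnF1-/- (adjusted p = 0.0733). Evl, an actin regulator that binds the adaptor Fyb, was at 18.3, 30.8 and 28.8 in wild type, 17.2 and 21.4 in ZnF1-/- and 29.3 and 40.2 in ZnF4-/-, and rose by 0.51 (adjusted p = 0.0278). Of the 14 genes of the calcium and NFAT branch, 2 rose in the same comparison, or 14.3% beside the 8.22% of all tested genes. Orai1, the pore of the store-operated calcium channel, was at 6.33, 8.69 and 9.48 in wild type, 6.45 and 8.02 in ZnF1-/- and 12.4 and 13.7 in ZnF4-/-, and rose by 0.71 ± 0.12 (adjusted p = 0.00859). Nfatc2, the transcription factor that calcineurin releases, rose by 0.53 (adjusted p = 0.0427). Of 11 genes of the PKC-theta and NF-kappaB branch and 11 of the Ras and MAP kinase branch, 0 passed in any comparison in either fit. With at most 8.22% of all tested genes called, 0 of 11 is near the background.

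The 33 phosphatases and inhibitors held 4 that rose and 3 that fell in ZnF4-/- in the blocked fit, or 21.2% of the list beside the 8.22% of all tested genes. Inpp4b, a lipid phosphatase that acts on products of PI3-kinase, was at 10.4, 9.30 and 9.0 RPKM in wild type, 8.53 and 9.85 in ZnF1-/- and 15.6 and 18.5 in ZnF4-/-, and rose by 0.80 ± 0.15 without the block (adjusted p = 0.0408) and by 0.81 with it (adjusted p = 0.00571). Cblb, a ubiquitin ligase that dampens TCR signals, was at 8.66, 9.20 and 10.4 in wild type, 11.3 and 12.9 in ZnF1-/- and 13.5 and 14.8 in ZnF4-/-, and rose by 0.59 ± 0.10 (blocked, adjusted p = 0.00957). Ubash3b, a phosphatase that acts on Zap70, was at 2.62, 2.98 and 2.79 in wild type, 1.81 and 2.44 in ZnF1-/- and 3.94 and 4.96 in ZnF4-/-, and rose by 0.62 (adjusted p = 0.0251).

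Pag1, the membrane adaptor that recruits Csk, rose by 0.35 in the blocked fit (adjusted p = 0.0475). Dok2, an adaptor that recruits a Ras inhibitor, fell by 0.49 (adjusted p = 0.0286), Inpp5d, the lipid phosphatase SHIP1, fell by 0.41 (adjusted p = 0.0436), and Sla fell by 0.42 (adjusted p = 0.0346). Against ZnF1-/-, the 7 pathway genes that rose in the blocked fit were Rasgrp4, Blk (1.03, adjusted p = 0.0219), Ubash3b (0.92, adjusted p = 0.00672), Inpp4b (0.86, adjusted p = 0.00682), Evl (0.82, adjusted p = 0.00542), Orai1 (0.81, adjusted p = 0.00705) and Nr4a3 (0.68, adjusted p = 0.0162). The 8 that fell were Tec, Txk, Cd8a, Cd8b1, Dok2, Inpp5d, Dgka and Skap1. Dok2 fell by 0.77 (adjusted p = 0.00589), Txk by 0.72 (adjusted p = 0.00824), Cd8a by 0.68 (adjusted p = 0.0222) and Inpp5d by 0.57 (adjusted p = 0.0169). Dgka, which removes the diacylglycerol that recruits Rasgrp1, fell by 0.44 (adjusted p = 0.0378), and Skap1, an adaptor for integrin activation, fell by 0.43 (adjusted p = 0.0426).

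Of 8 genes that TCR signals induce, 2 rose in ZnF4-/- in the blocked fit and 0 did without the block. The 2 were 25% of this short list, beside the 8.22% of all tested genes called in the blocked fit. Nr4a3, a nuclear receptor of the Nur77 family, was at 5.49, 6.56 and 8.02 RPKM in wild type, 6.26 and 8.02 in ZnF1-/- and 10.5 and 12.9 in ZnF4-/-, and rose by 0.83 ± 0.12 (adjusted p = 0.00409). Egr3, a zinc finger factor, rose by 0.70 (adjusted p = 0.0443). Both are early response genes, and others of that kind differed between libraries. Jun was at 1.29, 1.55 and 1.45 RPKM in wild type, 16.1 and 2.11 in ZnF1-/- and 4.03 and 3.36 in ZnF4-/-, and Fos was at 1.05, 1.08 and 1.28, then 15.8 and 1.17, then 3.75 and 1.58. ZnF1-/- 1 stood far above the other libraries in both. All 4 tested genes of the stress and immediate-early list had a value above 0 in ZnF4-/- against wild type, 0 passed in either fit, and their part in the values of Nr4a3 and Egr3 was not tested. Of the further induced genes, Nr4a1 was at 25.1 to 38.0 RPKM in wild type and 38.5 and 44.4 in ZnF4-/- (blocked 0.43, adjusted p = 0.0992), Egr1 at 32.5 to 62.0 and 44.6 and 54.5 (0.15, adjusted p = 0.609), and Cd69 at 28.1 to 32.3 and 21.7 and 26.6 (-0.30, adjusted p = 0.23). None of these 3 passed. Egr2 and Tox did not pass either. Within replicates 1 and 2, Egr2 in ZnF4-/- was -0.48 and -0.16 log2 units from wild type, and Tox -0.12 and -0.29. Cd5, a surface inhibitor whose level follows TCR signal strength, was at 74.7 to 114 and 86.95 and 112 (0.08, adjusted p = 0.735) and did not pass. The shifts of the immature and mature thymocyte markers given beside Rasgrp1 also apply to these lists, and their part was not tested.

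The blocked calls of pathway genes in ZnF4-/- against wild type were refitted with libraries scaled to a common median and with each of the 7 libraries left out, 8 settings in all. Txk, Rasgrp4, Orai1, Cblb, Inpp4b and Nr4a3 passed in all 8. Fgr passed in 7 (adjusted p = 0.0524 without wild type 2B) and Tec in 6 (lost without wild type 1 or without ZnF4-/- 2, with adjusted p up to 0.125). Vav3 passed in 5, lost without wild type 2A, wild type 2B or ZnF4-/- 2 (up to 0.15). Evl, Ubash3b and Egr3 passed in 4, Dok2 in 3, Cd8a, Nfatc2 and Inpp5d in 2, Sla in 1 and Pag1 in 0 of the 8, with adjusted p up to 0.111, 0.127, 0.145, 0.164, 0.272, 0.185, 0.183, 0.148 and 0.179. The call of Blk in ZnF1-/- passed in 3, and was lost when any wild type or ZnF1-/- library was left out (up to 0.381). Of the 15 calls between the mutants, Tec and Rasgrp4 passed in all 8 settings, and Evl, Ubash3b, Dok2 and Inpp4b in 7, lost without ZnF1-/- 2 for Evl (adjusted p = 0.0734) and without ZnF1-/- 1 for the others (up to 0.104). Txk and Orai1 passed in 6 (up to 0.102), Nr4a3 and Inpp5d in 5 (up to 0.23), Cd8a and Blk in 4 (up to 0.285), and Cd8b1, Dgka and Skap1 in 2 (up to 0.448), and each of these 9 was lost without ZnF1-/- 1, among others.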

How the data were processed

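RPKM values per gene were deposited for 7 libraries. Per the submitters' processing notes the authors used TopHat, bedtools and build mm9, with no versions given in the sources used here. The design text adds that exon reads were counted on NCBI gene models. The unit normalizes for gene length and mapped reads, so no count test was run. Values were taken as log2(RPKM + 0.5), which understates the fold change of low genes, and the 10498 genes averaging 1 RPKM or more were tested with limma 3.58.1 (lmFit, eBayes with trend) in R 4.3.3. The 3 groups shared 1 fit (4 residual degrees of freedom, 3.26 from the prior), with two-sided p values and Benjamini-Hochberg adjustment over all tested genes. Errors of RPKM and fold changes rest on 3 wild type and 2 libraries per mutant. The labels tie replicate number to instrument and read length. Across genes, deviations from group means correlated in all 8 pairs sharing a number (r from 0.489 to 0.737). Deviations within a group cancel out, so the 8 values are not independent. They show a difference tied to the number, and not that samples were paired. A fit with the number as a block was run beside the unblocked one. The median standard error of the blocked fit was 0.128 log2 units against 0.203. Alternatives were the pseudocount (0.1 and 1), no filter, scaling to a common median, the block, averaging wild type 2A and 2B, and leaving out each library. Counting error covers counting only. The 9 genes, the pathway and marker lists and the rule for named genes were chosen with earlier results of these data known. Genes were named if called in either fit, at most 12 per comparison by blocked p. Nfatc2, Egr3, Pag1, Dgka, Skap1 and Cd8b1 lay outside that number and were named after their values were seen. Some genes of the lists are not reported here.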

Additional observations from a re-analysis of the deposited data

Results flagged for a closer look

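Lck differed in direction between the mutants. Within both replicate numbers ZnF1-/- stood above wild type, with log2 differences of 0.21 and 0.01, and ZnF4-/- below it, with -0.01 and -0.25. The difference between the mutants was -0.24, and limma's test of that difference did not pass (adjusted p = 0.999 without the block and 0.365 with it). The 0.01 and the -0.01 are close to 0, and the wild type libraries are shared by both sides.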

How the results depend on the processing

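The 27 fold changes of the 9 genes were computed under 13 alternatives each. Of the 351 values, 0 passed the threshold, 300 kept the direction and 51 did not. With the replicate block the values that changed sign were 0.05 (Csk) and 0.02 (Lcp2) in ZnF1-/- against wild type, and 0.11 (Csk), 0.02 (Lcp2), 0.04 (Plcg1) and 0.10 (Zap70) in ZnF4-/- against wild type. With wild type 2A and 2B averaged the same values were 0.06, 0.03, 0.13, 0.03, 0.04 and 0.16. Scaling to a common median gave 0.00 for Lcp2 between the mutants. The block and the averaging each even out the larger share of 50 bp libraries in wild type, which otherwise enters fold changes against wild type. No other cause was tested. The block changed no call of the 9 genes.

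In ZnF1-/- against wild type the fold changes with 1 library left out ran from -0.15 to 0.18 for Lck, 0.02 to 0.29 for Fyn, -0.28 to 0.36 for Zap70, -0.42 to 0.27 for Csk, -0.13 to 0.01 for Ptprc, -0.44 to -0.09 for Lat, -0.27 to 0.18 for Lcp2, -0.03 to 0.36 for Plcg1 and -0.13 to -0.01 for Rasgrp1. In ZnF4-/- against wild type the fold changes with 1 library left out ran from -0.39 to -0.08 for Lck, -0.03 to 0.34 for Fyn, -0.38 to 0.21 for Zap70, -0.30 to 0.28 for Csk, -0.11 to 0.15 for Ptprc, -0.31 to 0.00 for Lat, -0.19 to 0.04 for Lcp2, -0.16 to 0.12 for Plcg1 and -0.35 to -0.30 for Rasgrp1. Between the mutants the fold changes with 1 library left out ran from -0.40 to -0.08 for Lck, -0.20 to 0.18 for Fyn, -0.38 to 0.18 for Zap70, -0.28 to 0.41 for Csk, -0.05 to 0.21 for Ptprc, -0.02 to 0.28 for Lat, -0.22 to 0.23 for Lcp2, -0.38 to 0.01 for Plcg1 and -0.31 to -0.19 for Rasgrp1.

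Counts moved more. Over all tested genes the 9, 267 and 246 calls became 92, 863 and 765 with the replicate block, 3, 596 and 576 without the filter, and ran from 1 to 10, 105 to 239 and 103 to 306 with 1 library left out. Scaling gave 17 in ZnF1-/-, and averaging 2A and 2B gave 1 in ZnF1-/- and 127 in ZnF4-/-. The 0, 2 and 2 pathway calls became 1, 18 and 15 with the block. Scaling gave 6 in ZnF4-/- against wild type and 6 between the mutants, and averaging gave 0 and 1. With 1 library left out they ran from 0 to 1 against wild type in ZnF4-/- and 0 to 2 between the mutants. The blocked fits with scaling or with 1 library left out were chosen after seeing the data. They gave 3 pathway calls in ZnF1-/- with scaling, and with 1 library left out 0 to 4 in ZnF1-/-, 7 to 15 in ZnF4-/- and 3 to 18 between the mutants. Leaving out 1 mutant library leaves a lone sample that is assumed to vary like the other groups.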
